A study of Homo sapiens with 6 samples.

Results

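The genes that build cadherin-based cell adhesion were examined in the RNA of U2OS, a line of human osteosarcoma cells, after knockdown of LSD1. The members were chosen by name, as every gene whose symbol starts with CDH or PCDH together with the catenins CTNNA1, CTNNA2, CTNND1, CTNND2 and JUP. Of 15585 genes with reads in the 6 libraries, 65 were members, and CTNNA2 was not among the genes listed. The members comprised 4 catenins, 5 type I and 6 type II cadherins, 9 other cadherins, 5 non-clustered protocadherins, and 36 clustered protocadherins of which 2 were alpha, 15 beta and 19 gamma genes. All cells were transfected with siRNA for 48 h. The control group (siCTR, n = 3 libraries) received control siRNA and the knockdown group (siLSD1, n = 3 libraries) received LSD1 siRNA. Which LSD1 siRNA was used, and whether the libraries came from separate cultures, was not given in the sources used here, so p-values measure only the spread between these libraries, which may be technical.

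Classical cadherins are calcium-dependent adhesion receptors that bind the same cadherin on a neighboring cell through their extracellular domains. Inside the cell, beta-catenin or plakoglobin binds the cadherin tail, alpha-catenin connects the complex to actin, and p120-catenin holds the cadherin at the membrane. Type I cadherins include E-, N- and P-cadherin, and type II cadherins include VE-cadherin (CDH5), the adhesion receptor of endothelial junctions. Clustered protocadherins are encoded in tandem arrays in which each first exon has its own promoter, and neurons use them to tell their own processes from those of other cells. LSD1, encoded by KDM1A, is a lysine demethylase that removes methyl groups from histone H3 lysine 4. The study used Cadherin-5 as a control protein for a gene that goes up upon LSD1 knockdown, and here its RNA was set against that of the rest of the family.

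Sequencing depth was similar in all libraries, between 12513511 and 13561344 counted reads. Of the 15585 genes, 11844 had enough reads to be tested with edgeR's quasi-likelihood test, and the biological coefficient of variation, the typical spread between libraries of a group, was 12.6%. Within siCTR, replicate 2 stood apart, where the chi-square statistic over genes, divided by its degrees of freedom, was 29.2 and 22.7 against replicates 1 and 3 but 7.02 between those, and within siLSD1 the values were 6.45 to 23.1. KDM1A itself was at 6140, 6493 and 6573 reads in the siCTR libraries against 1110, 1198 and 1246 in the siLSD1 libraries. Its log2 fold change was −2.44 ± 0.11 (SE, n = 3 libraries per group; edgeR adjusted p = 2.27e-07), and every siLSD1 library was below every siCTR library.

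In the family as a whole, 3 cadherins had more RNA upon LSD1 knockdown at an unadjusted p under 0.05, namely CDH5, CDH1 and CDH13, and no member had less. The fitted fold (siLSD1 over siCTR) was 3.04 for CDH5, 1.71 for CDH1 and 1.25 for CDH13. N-cadherin (CDH2), the 3 catenins tested and the 5 protocadherins tested did not pass in either direction, and the other protocadherins had too few reads for a test. The count filter left 17 of the 65 members. Against the 3 members called higher of 17 tested, 7.48% of all tested genes were called higher, and against 0 members called lower, 6.55% of all tested genes were called lower. After Benjamini-Hochberg adjustment over all tested genes, no member had an edgeR p under 0.05 (the 3 counted above were under it before adjustment), where 1.44% of all tested genes did. In DESeq2 and in limma-voom the unadjusted count was also 3 higher and 0 lower, and the adjusted count was 1 (CDH1) in DESeq2 and 0 in limma-voom. In CPM, read counts scaled to library size, all siLSD1 libraries were above all siCTR libraries for 4 of the 17 tested members (CDH5, CDH1, CDH12 and CTNND1), compared with 11.4% of all tested genes, and below them for 0 members, compared with 9.97%. The median log2 fold change of the tested members was 0.09, with 12 above 0 and 5 below, beside −0.01 over all tested genes. These counts cover only members with enough reads. CDH5 itself, at 0.62, 0.31 and 0.82 CPM in siCTR, passed the filter only through its siLSD1 libraries, so its place in the counts is no support for a family pattern.

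**Figure D1:**
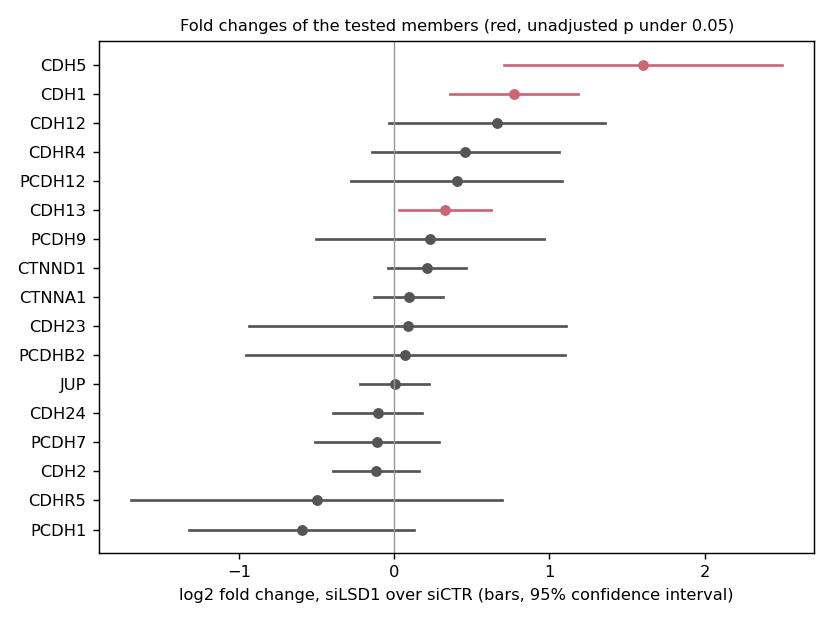
Log2 fold change (siLSD1 over siCTR, horizontal axis) of each of the 17 tested members, with points for the edgeR estimate and bars for its 95% confidence interval. The 3 red intervals, those of CDH5, CDH1 and CDH13, lie above 0, and the other 14 cross it.

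Most of the family was barely transcribed in these cells. In FPKM (fragments scaled to gene length and to the reads of the library, as deposited), the median over the members was 0.0262, beside 4.86 over all genes listed. Only 7 members (10.8%) reached a mean of 1 FPKM over the 6 libraries, compared with 67.2% of all genes. In raw reads, 33 of the 65 members had at most 10 reads in all 6 libraries together, and 29 had at least 1 read in every library. The 3 catenins CTNNA1, JUP and CTNND1 took 109185 of the 121421 reads on the members, or 89.9%. In order of FPKM, CTNNA1 (158 to 185 over the 6 libraries), JUP (104 to 115), CTNND1 (33.6 to 47.5) and CDH2 (9.89 to 13.0) came first, and each of the first 3 was separated from the next by non-overlapping ranges. CDH2 and CDH24 (9.20 to 12.7 FPKM) overlapped each other, CDH13 (2.37 to 3.43 FPKM) stood apart from both neighbors in the order, and from CDH1 (0.987 to 2.33 FPKM) down every gene overlapped the next. CDH5 was fourteenth in this order, with 0.0579 to 0.397 FPKM.

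**Figure D2:**
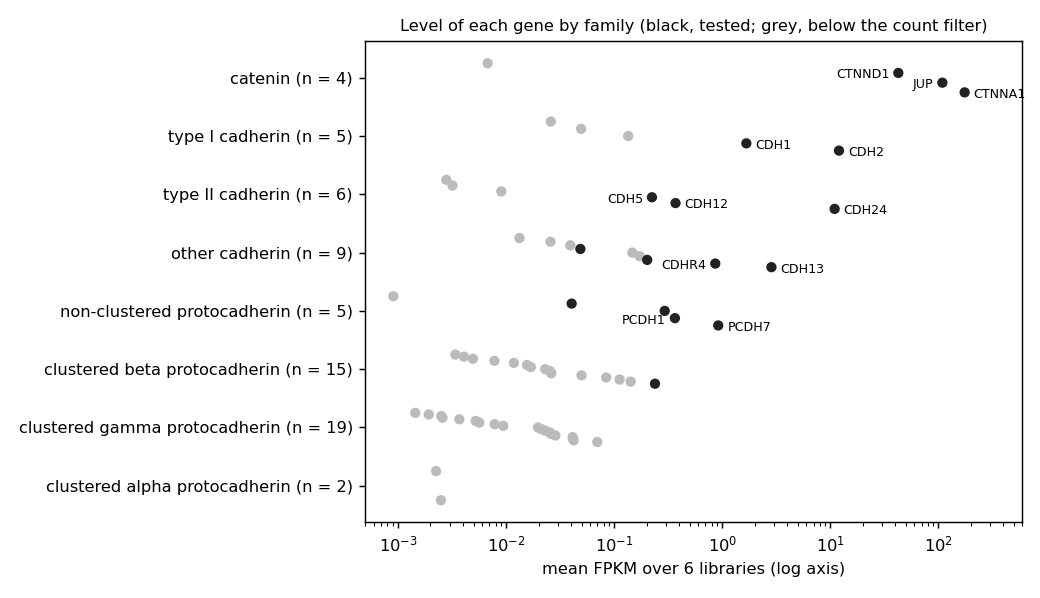
Mean FPKM over the 6 libraries (horizontal log axis) of each of the 65 members, grouped by family, in black for the 17 tested and in grey for the 48 with too few reads. The catenins CTNNA1, JUP and CTNND1 lie far to the right of the cadherins, and the clustered protocadherins all lie below 1 FPKM.

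The catenins were the most abundant members. CTNNA1, alpha-catenin, which links the complex to actin, had 8780, 8073 and 9253 reads in the siCTR libraries compared with 9158, 9069 and 9651 in the siLSD1 libraries. The groups overlapped, with a log2 fold change of 0.09 ± 0.10 (SE) and a 95% interval from −0.13 to 0.32, and leaving out 1 library gave 0.057 to 0.12. JUP, plakoglobin, which serves both adherens junctions and desmosomes, had 5405, 5121 and 5312 reads in the siCTR libraries against 5685, 5030 and 5209 in the siLSD1 libraries, and its interval ran from −0.22 to 0.23. The libraries of the 2 groups were interleaved for JUP. CTNND1, p120-catenin, which regulates cadherin turnover at the membrane, had 3844, 3052 and 3959 reads in the siCTR libraries compared with 4411, 3790 and 4383 in the siLSD1 libraries. After scaling to CPM its groups did not overlap (276 ± 33.3 against 319 ± 13.2 CPM, mean ± SD, n = 3 each), but the log2 fold change of 0.21 ± 0.12 had an edgeR adjusted p of 0.447. The low siCTR library was replicate 2 (238 CPM, beside 294 and 296 CPM), and without it the log2 fold change of CTNND1 was 0.12 ± 0.085. CTNND2, delta-catenin, a mainly neuronal relative of p120-catenin, had 3 reads in 1 siCTR library and 0 in the other 5, too few for a comparison.

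Among type I cadherins, N-cadherin was the main one and E-cadherin was the one past the unadjusted threshold. CDH2, N-cadherin, the cadherin of mesenchymal and neural cells, had 742, 710 and 740 reads in the siCTR libraries against 585, 656 and 781 in the siLSD1 libraries. The siLSD1 libraries spread to both sides of the siCTR libraries, and the log2 fold change was −0.12 ± 0.13 (95% interval −0.40 to 0.16). Leaving out 1 library moved the CDH2 value to between −0.21 (siLSD1 replicate 3 left out) and −0.014 (siLSD1 replicate 1 left out). CDH1, E-cadherin, the adhesion receptor of epithelial cells, had 95, 80 and 66 reads in the siCTR libraries compared with 154, 117 and 143 in the siLSD1 libraries. All 3 siLSD1 libraries were above all 3 siCTR libraries, at 10.5 ± 1.05 against 6.15 ± 1.21 CPM (mean ± SD, n = 3 each). The log2 fold change was 0.77 ± 0.19 (SE; 95% interval 0.36 to 1.18), with an edgeR adjusted p of 0.0699. Even in siLSD1 the level of CDH1, at 2.11 ± 0.225 FPKM, was below that of CDH2, at 11.5 ± 1.54 FPKM. The adjusted call for CDH1 depended on the processing. Its adjusted p was under 0.05 in DESeq2 (0.0285), in edgeR without the count filter (0.0323) and in edgeR with offsets corrected for GC content and length (0.0267). It was not under 0.05 in limma-voom (0.0761), with library-size scaling (0.0785), with the stricter filter (0.0645) or with the second deposited counts (0.0869), nor in any of the 6 fits that left out a library (0.0541 to 0.253).

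CDH3, P-cadherin, whose gene ends 9.82 kb before that of E-cadherin, had too few reads for the count filter and was named after its values were seen. The siCTR libraries held 3, 3 and 5 reads of CDH3 against 12, 8 and 23 in the siLSD1 libraries, and the groups did not overlap. Without the filter its log2 fold change was 1.92 ± 0.61 (SE), with an edgeR adjusted p of 0.113. It was the only one of the 48 members left out by the filter that had an unadjusted p under 0.05 in that fit. There, 6.53% of all 15585 genes were called higher, but most of those genes had enough reads for the filter, so that share is not a like background for the 48. CDH15, M-cadherin of muscle, had 0 to 3 reads per library, and CDH4, R-cadherin, had 1 to 3.

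Among type II cadherins, CDH24 was the abundant one and CDH5 had the largest fold change of the tested members. CDH24 had 581, 513 and 493 reads in the siCTR libraries compared with 528, 504 and 443 in the siLSD1 libraries, and its groups overlapped, with a log2 fold change of −0.11 ± 0.13 (−0.18 to −0.018 when 1 library was left out). CDH5 (chr16:66366690-66404784, plus strand, GRCh38) had 8, 4 and 11 reads in the siCTR libraries against 28, 16 and 27 in the siLSD1 libraries. The lowest siLSD1 library was above the highest siCTR library, although all 6 counts were low, and the means were 1.79 ± 0.441 against 0.582 ± 0.255 CPM (± SD, n = 3 each).

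The log2 fold change of CDH5 was 1.60 ± 0.41 (SE; 95% interval 0.71 to 2.50), with an edgeR adjusted p of 0.0830. On the scale of gene level, CDH5 was at 0.110 ± 0.0486 FPKM in siCTR and 0.338 ± 0.0846 FPKM in siLSD1, below the 0.884 ± 0.0921 FPKM of PCDH7 or the 1.00 ± 0.180 FPKM of CDHR4 in the same libraries. When each library was left out in turn the CDH5 log2 fold change lay between 1.31 and 1.93 and stayed past the unadjusted threshold in all 6 fits, with adjusted p between 0.124 and 0.228. The adjusted p of CDH5 was 0.0320 with the GC content and length correction, and between 0.0541 and 0.0950 with the other tools, filters, scaling and counting. CDH12, a type II cadherin mainly of the brain, had 19, 17 and 17 reads in the siCTR libraries compared with 28, 35 and 21 in the siLSD1 libraries. Its groups did not overlap either, but its log2 fold change of 0.66 ± 0.32 missed the unadjusted threshold (edgeR adjusted p = 0.380). CDH12 passed the unadjusted threshold without siLSD1 replicate 3 (log2 fold change 0.85 ± 0.33) and with the second deposited counts (0.67 ± 0.31), whereas without siLSD1 replicate 2 its log2 fold change was 0.44 ± 0.39. CDH6, CDH8 and CDH18 had 0 to 3 reads per library.

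**Figure D3:**
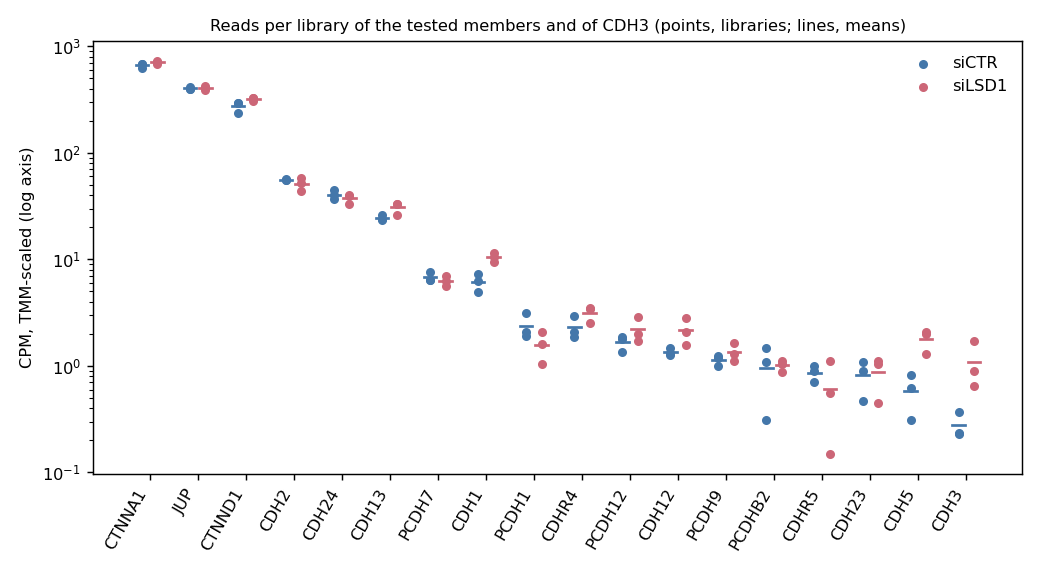
TMM-scaled CPM (vertical log axis) of each of the 17 tested members and of CDH3, with a point for each library and a line for each group mean, siCTR in blue and siLSD1 in red. The siLSD1 points of CDH1, CDH5, CDH12, CTNND1 and CDH3 all lie above the siCTR points of the same gene.

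The remaining cadherins lack the classical catenin-binding tail or have it in altered form. CDH13, T-cadherin, which is held in the membrane by a lipid anchor, had 339, 299 and 324 reads in the siCTR libraries against 350, 415 and 443 in the siLSD1 libraries. Its lowest siLSD1 library lay within the siCTR range after scaling, at means of 30.7 ± 4.04 against 24.5 ± 1.45 CPM. The log2 fold change was 0.33 ± 0.14 (SE; 95% interval 0.03 to 0.62), with an edgeR adjusted p of 0.298. The unadjusted call for CDH13 was lost without siCTR replicate 2 (log2 fold change 0.29), siCTR replicate 3 (0.31), siLSD1 replicate 2 (0.27) or siLSD1 replicate 3 (0.28). CDHR4, a cadherin-related gene, had 27, 38 and 25 reads in the siCTR libraries compared with 47, 43 and 34 in the siLSD1 libraries, with overlapping groups and a log2 fold change of 0.46 ± 0.28. Leaving out each library in turn gave CDHR4 values between 0.32 (siCTR replicate 3 left out) and 0.68 ± 0.29 (siCTR replicate 2 left out), and the latter alone passed the unadjusted threshold. CDHR5, a cadherin of intestinal microvilli, and CDH23, a cadherin of hair-cell tip links, had 2 to 15 and 6 to 15 reads per library, and their intervals, −1.69 to 0.70 and −0.94 to 1.11, leave changes of that size undetectable at this depth. CDHR2, CDHR3, CDH16, CDH17 and CDH26 had at most 15 reads in any library.

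The non-clustered protocadherins had means of at most 0.919 FPKM over the 6 libraries, and none of the 4 tested passed the test. PCDH7, a delta-protocadherin, had 83, 97 and 87 reads in the siCTR libraries against 75, 87 and 85 in the siLSD1 libraries, and its log2 fold change was −0.11 ± 0.19 (−0.19 to −0.031 when 1 library was left out). PCDH1, a delta-protocadherin of airway epithelium, had 25, 27 and 42 reads in the siCTR libraries compared with 14, 20 and 28 in the siLSD1 libraries, with the lowest fitted log2 fold change of the tested members, −0.60 ± 0.34. Its groups overlapped and its edgeR adjusted p was 0.450, while the log2 fold change was −0.85 without siLSD1 replicate 3, which passed the unadjusted threshold, and −0.35 without siCTR replicate 3 and −0.37 without siLSD1 replicate 1, which did not. PCDH12, also called VE-cadherin-2 for its expression in endothelium, had 23, 24 and 18 reads in the siCTR libraries against 23, 36 and 27 in the siLSD1 libraries (log2 fold change 0.40 ± 0.31, edgeR adjusted p = 0.593). PCDH9 had 13 to 22 reads per library and a log2 fold change of 0.23 ± 0.34, and PCDH15, the tip-link partner of CDH23, had 1 read in all.

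The clustered protocadherins made up 36 of the 65 members and 1 of them, PCDHB2, was tested. Their promoters are known to carry a conserved element bound by CTCF, which folds the locus so that an enhancer meets one promoter. Of the 65 members, 51 had a promoter of 300 bases (250 before and 50 after the start) in the RefSeq table on GRCh38.p14. The longest word shared by the promoters of all 13 beta genes in that table was the 9 bases GGTGGCGCT, searched also as its reverse complement AGCGCCACC. It was in 176 of 35116 promoters in the table (0.501%) and in none of the other members with a promoter there. It lay 2 to 84 bases before the start, with a median of 66. The stretches shown are those of the tested gene PCDHB2, the next most abundant beta gene PCDHB15, PCDHB14, whose reads were lower in all siLSD1 libraries, and of the near-identical pair PCDHB8 and PCDHB13. Each is 81 bases on the plus strand, read 5′ to 3′, and the capitals mark the shared word.
PCDHB2, chr5:141094519-141094599: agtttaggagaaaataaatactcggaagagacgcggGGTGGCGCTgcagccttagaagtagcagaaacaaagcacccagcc
PCDHB15, chr5:141245289-141245369: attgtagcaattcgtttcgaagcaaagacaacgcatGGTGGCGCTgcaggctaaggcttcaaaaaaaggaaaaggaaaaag
PCDHB14, chr5:141223238-141223318: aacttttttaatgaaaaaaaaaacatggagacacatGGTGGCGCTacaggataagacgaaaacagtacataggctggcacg
PCDHB8, chr5:141177752-141177832: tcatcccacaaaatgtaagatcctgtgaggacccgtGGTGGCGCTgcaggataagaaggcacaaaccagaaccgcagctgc
PCDHB13, chr5:141213840-141213920: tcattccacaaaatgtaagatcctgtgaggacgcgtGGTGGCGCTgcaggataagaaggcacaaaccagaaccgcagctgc
Over these 81 bases, PCDHB8 and PCDHB13 were identical at 79 positions (97.5%), while the next closest pair of beta genes reached 66.7% and the median over 78 pairs was 48.1%. How the authors' counting treated reads that fit both genes is not given in the sources used here, so the counts of this pair are uncertain.

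The beta genes ranged from 1 read to 78 reads over the 6 libraries. PCDHB2 had 4, 14 and 20 reads in the siCTR libraries compared with 14, 11 and 15 in the siLSD1 libraries. Its groups overlapped, with a log2 fold change of 0.07 and an interval from −0.96 to 1.10, so changes of up to about that size were not detectable at this depth. PCDHB15 had 4, 8 and 7 reads in the siCTR libraries against 15, 6 and 5 in the siLSD1 libraries. PCDHB14 had 5, 5 and 4 reads in the siCTR libraries compared with 1, 1 and 3 in the siLSD1 libraries, and PCDHB12 had 0, 1 and 0 reads in the siCTR libraries against 3, 2 and 2 in the siLSD1 libraries. Both were named after their values were seen, and neither had enough reads for the filter. Of the 48 members left out by the filter, the groups in CPM did not overlap for 2, CDH3 and PCDHB12, higher in siLSD1, and for 1, PCDHB14, lower. Over all 3741 genes left out by the filter these shares were 5.03% higher and 2.54% lower, so the counts among the members were near the background.

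Summed over its 15 genes, the beta cluster had 24, 44 and 54 reads in the siCTR libraries compared with 53, 34 and 38 in the siLSD1 libraries. The sums overlapped, and the log2 ratio of siLSD1 over siCTR was 0.03, well inside a spread between libraries of 0.47. The 19 gamma genes had 33, 15 and 39 reads in the siCTR libraries against 30, 21 and 36 in the siLSD1 libraries, with no gene above 34 reads in all 6 libraries together. Gamma genes end in the same constant exons, as do alpha genes, and the authors' rule for reads in those exons is not given in the sources used here, so counts of single gamma and alpha genes are uncertain. The 2 alpha genes, PCDHA10 and PCDHA12, had 3 reads and 1 read in all.

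**Figure D4:**
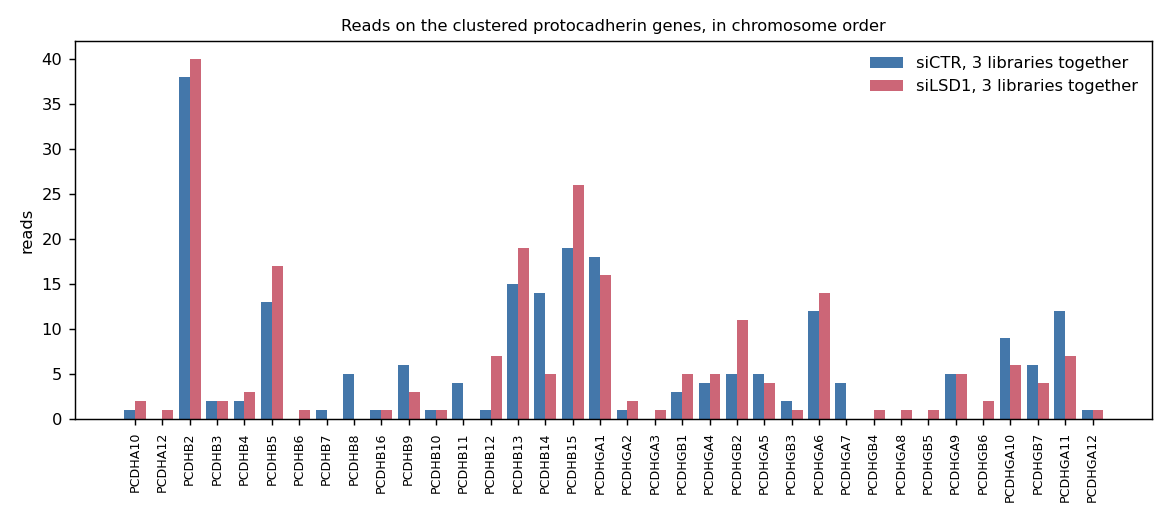
Reads on each clustered protocadherin gene (vertical axis), summed over the 3 siCTR libraries (blue) and over the 3 siLSD1 libraries (red), with genes in chromosome order along the horizontal axis. PCDHB2 has the most reads in both groups, and most genes have fewer than 10 in either.

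CDH5 had the largest log2 fold change of the 17 tested members. The study chose Cadherin-5 as its control for a gene that goes up upon LSD1 knockdown with this RNA-seq in hand, and CDH5 passed the filter only through siLSD1, so its place is given as a description with no test. The other 16 tested members had log2 fold changes from −0.60 to 0.77 with a median of 0.09, and 15 of them had an estimate below 0.71, the lower bound of the CDH5 interval. The intervals of 9 of them ended below that bound. Those of the rest, CDH1 (0.36 to 1.18), CDH12, CDHR4, PCDH12, PCDH9, CDH23 and PCDHB2, reached past it. In all 11844 tested genes, 25 (0.211%) had a larger log2 fold change than CDH5. Without the filter, CDH3 at 1.92 and PCDHB12 at 2.42 (8 reads in all 6 libraries) had larger fitted values than CDH5 at 1.60, as did some clustered protocadherins with 1 or 2 reads in all.

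**Figure D5:**
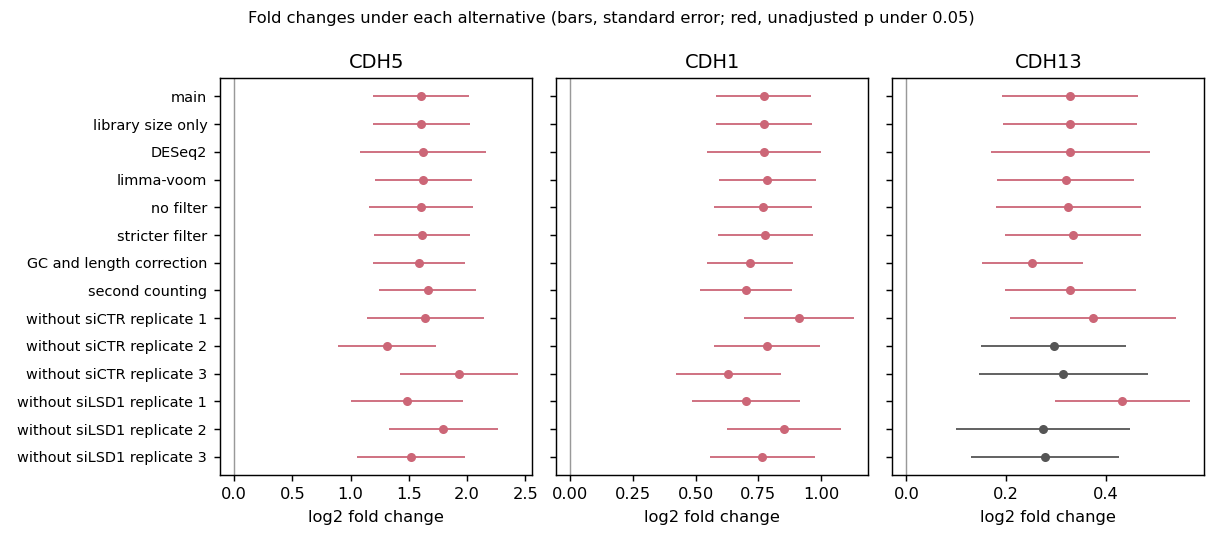
Log2 fold change (horizontal axis) of CDH5, CDH1 and CDH13 under the main fit and each alternative except the replicate block. Points give the estimate, bars the standard error, and red marks an unadjusted p under 0.05. CDH5 and CDH1 are red throughout, while CDH13 is grey in 4 of the 6 fits that leave out a library.

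The 3 called cadherins lie on chromosome 16, as was noticed after their values were seen. Of the 65 members, 7 lie on chromosome 16 and 44 on chromosome 5. The 3 tested members on chromosome 16 were CDH5, CDH1 and CDH13 (chr16:82626965-83800640), and none of the 14 tested members elsewhere was called. CDH5 passed the filter only through its siLSD1 libraries, so this split is a description with no test. Of the members there with too few reads, CDH3 and CDH15 had fitted values above 0 without the filter, and CDH8 and CDH16 below 0. Across chromosome 16, 565 genes were tested, of which 5.49% were called higher and 8.85% lower, with a median log2 fold change of −0.07. Among the 10 nearest tested genes around CDH1, 1 was called at the unadjusted threshold, ZFP90 (log2 fold change 0.49, edgeR adjusted p = 0.176). Among the 10 around CDH5, 1 was called, SLC38A7 (0.44, edgeR adjusted p = 0.220), and both genes were named after their values were seen. The log2 fold changes of these neighbors ranged from −0.29 to 0.49 around CDH1 and from −0.18 to 0.44 around CDH5. Neighbors were taken on both sides with no limit on distance, so a called neighbor need not lie close to the cadherin.

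The wider adhesion machinery was examined in 88 partner genes, written as 6 lists, of which 74 were listed and 67 tested. In these, 8 (11.9%) were higher and 2 (2.99%) lower in siLSD1 at an unadjusted p under 0.05, beside 7.48% and 6.55% of all tested genes, and 1 passed the adjusted threshold. That gene, CLSTN2, a calsyntenin with cadherin repeats, had 85, 60 and 92 reads in the siCTR libraries compared with 141, 144 and 165 in the siLSD1 libraries. Its groups did not overlap, and its log2 fold change was 0.92 ± 0.19 (edgeR adjusted p = 0.0288). The adjusted p of CLSTN2 was 0.00287 to 0.0339 with the other tools, filters, scaling, correction and counting. When each library was left out in turn, it lay between 0.0419 and 0.118 and stayed under 0.05 in 1 of the 6 fits. CLSTN1, its close relative, was also in the list of large and atypical cadherins and had a log2 fold change of 0.31 ± 0.13 (edgeR adjusted p = 0.306), an unadjusted call that was lost in 4 of the 6 such fits, without siCTR replicates 2 and 3 and siLSD1 replicates 1 and 2, with log2 fold changes of 0.20, 0.32, 0.24 and 0.32.

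Among the catenin family, beta-catenin (CTNNB1), the main partner of the cadherin tail and the effector of Wnt signalling, had 3298, 3656 and 3493 reads in the siCTR libraries against 3409, 3395 and 3653 in the siLSD1 libraries, with no separation of the groups. The armadillo proteins PKP2 (log2 fold change 0.43 ± 0.13, edgeR adjusted p = 0.152) and PKP4 (0.29 ± 0.10, adjusted p = 0.220), which serve desmosomes and junctional plaques, were higher at the unadjusted threshold. ARVCF, a p120-catenin relative, was lower at that threshold (−0.49 ± 0.22, edgeR adjusted p = 0.321). The ARVCF call was lost without siCTR replicate 1 (log2 fold change −0.46), siCTR replicate 3 (−0.46) or siLSD1 replicate 3 (−0.24), and that of PKP4 without siLSD1 replicate 2 (0.31). The separate list of desmosomal cadherins and plaque proteins, which does not hold PKP2, had no call among 3 tested.

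Among 20 tested genes that repress cadherin genes or shape the protocadherin locus, TCF3, an E-box binding factor (log2 fold change 0.40 ± 0.13, edgeR adjusted p = 0.179), and SMC1A, a cohesin subunit (0.37 ± 0.12, adjusted p = 0.179), were higher at the unadjusted threshold. The call for TCF3 was lost without siLSD1 replicate 1 (log2 fold change 0.27). SNAI1, SNAI2, ZEB1, ZEB2 and TWIST1, the classical repressors of E-cadherin, did not pass, and ZEB1, the most abundant of them, had 597, 526 and 680 reads in the siCTR libraries compared with 539, 535 and 708 in the siLSD1 libraries. Of the 15 tested genes of cadherin processing and turnover, NCSTN, a gamma-secretase subunit (0.39 ± 0.12, edgeR adjusted p = 0.157), and PTPRF, a receptor tyrosine phosphatase of junctions (0.64 ± 0.17, adjusted p = 0.0976), were higher at the unadjusted threshold. Of the 13 tested nectins and junction adaptors, LIMD1, a LIM-domain adaptor, was lower at the unadjusted threshold (−0.40 ± 0.11, edgeR adjusted p = 0.126).

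Cell type markers were read beside the cadherins that mark those types, and their part in the results was not tested. Their calls are at the unadjusted threshold, which 7.48% of all tested genes passed as higher and 6.55% as lower. Of 14 endothelial markers, 12 were listed and 5 tested, and the summed level was 57.1 to 65.9 FPKM in siCTR and 52.0 to 70.9 FPKM in siLSD1, mostly from ESAM and EGFL7. VWF, the clotting factor carrier of endothelial cells, had 103, 63 and 89 reads in the siCTR libraries against 152, 161 and 155 in the siLSD1 libraries, which gave a log2 fold change of 0.87 ± 0.19 (edgeR adjusted p = 0.0418). The adjusted p of VWF was 0.0538 with library-size scaling and 0.0067 to 0.0442 with the other tools, filters, correction and counting. It was 0.0259 to 0.181 when each library was left out, under 0.05 only without siCTR replicate 1. VWF was the only called marker of the 5, and the defining genes PECAM1, TEK, TIE1, SOX17 and ROBO4 had 0 to 3 reads per library. Of 13 epithelial markers, 11 were listed and 6 tested, and KRT18 and CLDN7 were called lower and none higher, with summed levels of 984 to 1159 FPKM in siCTR and 781 to 981 FPKM in siLSD1, mostly from KRT8 and KRT18. Of 13 osteoblast and mesenchymal markers, 10 were listed and 6 tested, and 1, the matrix gene FN1, was called higher (log2 fold change 0.95, edgeR adjusted p = 0.0216). VIM, CD44 and ALPL were abundant in that list, RUNX2, SP7 and SPARC had 0 to 4 reads per library, and the summed level was 579 to 633 FPKM in siCTR and 602 to 634 FPKM in siLSD1. Of 12 neuronal markers, 7 were listed and 3 tested with no call, at summed levels of 1.31 to 2.03 FPKM in siCTR and 1.54 to 1.93 FPKM in siLSD1. In bulk RNA, fewer cells with the gene and less RNA per cell cannot be told apart.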

How the data were processed

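RNA-seq libraries of U2OS cells, 3 siCTR and 3 siLSD1, were grouped by their labels. STAR was the authors' aligner, and 1 deposited table gives the read counts and FPKM of each gene in the 6 libraries. The genome build and the counting tool are not given in the sources used here. The authors' deposited tables for library pairs hold other read counts from these libraries, which were 1.11 times as high in the median gene (1.10 in 8 members). The deposited DESeq2 fold changes, p-values and normalized signal were not used.

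Counts were tested in R 4.3.3 with edgeR 4.0.16 (TMM, filterByExpr at min.count 10, quasi-likelihood test, no covariate) on all genes, with Benjamini-Hochberg adjustment over the 11844 tested. CPM were TMM-scaled. Intervals are 95% confidence intervals of the fit, and called means an unadjusted p under 0.05. No 2 libraries agreed within sampling noise, so all 6 were counted. Python 3.11.15 was used for the remaining steps. Coordinates are from GENCODE release 44 on GRCh38, matched by symbol for 15352 of 15585 genes, and promoters are from RefSeq. The fit was tested on simulated counts.

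Named members were CDH5, the catenins, members called by edgeR and the 10 with the highest mean FPKM. Partner genes were named where called, and KDM1A as the check of the knockdown. Other genes were named after their values were seen. The members and lists were chosen with earlier results of these data known. Alternatives were library-size scaling, DESeq2 1.42.0, limma-voom (limma 3.58.1), no filter, a stricter filter (1 CPM or more in 3 libraries), the replicate number as a block, a lowess correction (span 0.3) for GC content and length, the second counts, and leaving out each library.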

Additional observations from a re-analysis of the deposited data

How the results depend on the processing

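The count of members called higher at an unadjusted p under 0.05 was 3 and stayed between 3 and 4 under every alternative but the second counting, where it was 5 with CDH12 and CDH3 added. The members behind the count changed: CDH5 and CDH1 were called in every fit, CDH13 dropped out without siCTR replicate 2, siCTR replicate 3, siLSD1 replicate 2 or siLSD1 replicate 3, and CDH3, CDH12 or CDHR4 came in. The count called lower was 0, and 1 without siLSD1 replicate 3, where PCDH1 passed, so the range over libraries left out was 0 to 1. The count called higher at an adjusted p under 0.05 was 0, but 1 with DESeq2, 1 without the filter and 2 with the GC content and length correction. The median log2 fold change of the tested members was 0.09, but 0.21 with limma-voom and 0.16 with the stricter filter, and 0.087 to 0.26 when each library was left out, where 17 to 20 members were tested. JUP, at 0.00, changed sign without siCTR replicate 2, siCTR replicate 3 and siLSD1 replicate 1 (range over libraries left out −0.031 to 0.038), and CDH24 changed from −0.11 to 0.030 with the GC content and length correction; the cause was not tested. The fit with a replicate block, for libraries with the same number, gave 2 members higher at an adjusted p under 0.05, CDH1 (adjusted p = 0.0030) and CDH5 (adjusted p = 0.0071), and 897 genes called in all instead of 171. The correlations of same-numbered libraries were 0.33, 0.07 and 0.31, and every library correlated best with its own number, which is a hint from the data and not from the design, since no label says that a number marks a shared culture. Over all genes, the number with an adjusted p under 0.05 was 171, and it was 323 with DESeq2, 290 without the filter, 869 with the GC content and length correction, and 58 to 136 when a library was left out. The filter left out 48 of the 65 members, and of these only CDH3 had an unadjusted p under 0.05 in the fit without a filter.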
